A study of Homo sapiens with 6 samples.

Results

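The genes described here lie in one 48.6 Mb stretch of the long arm of chromosome 15, at chr15:41503638-90082207 in GRCh38. A gene counted as a member when its row of the gene count table began inside that stretch and held at least 10 reads in 3 or more of the 6 libraries. Of 1228 genes in the stretch, 875 did not meet that count and 353 did, and 23 of these were set aside by name, which left 330 members of the 58735 genes in the table. The stretch had been picked because its genes lay low in the comparison reported below, so the members' levels are given as a description without a test. By annotation, 270 members were protein-coding, 25 were antisense transcripts and 35 were of other kinds.

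RNA was sequenced from MDA-MB-231 cells, a line from a triple-negative breast cancer, in 2 groups of 3 libraries. The parent group was the unselected line, with the genotype label WT. The second group, called ADRr here, was the same line made resistant to adriamycin (ADR, also called doxorubicin, an anthracycline that damages DNA). Per the study's methods ADRr cells had survived stepwise increases of the drug and were then cloned by limiting dilution, so these libraries may stand for 1 clone. The series' design text mentions 3 time points, but the labels give neither a time of harvest nor a drug dose for any library, so the 3 libraries of a group may differ in time. The labels also do not say whether the 3 libraries of a group came from separate cultures, so the spread between them may be technical.

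Genes that sit side by side on a human chromosome mostly have unrelated roles and separate promoters, so a long stretch samples many pathways at once. Tumour lines commonly carry rearranged chromosomes and silenced regions, and the RNA of many neighbouring genes can then shift together. Selection by a drug followed by cloning starts a new population from few cells. RNA was the only quantity measured, DNA copy number and chromatin were not analysed here, and in bulk RNA fewer cells expressing a gene cannot be told apart from less RNA in each cell.

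The 250 bases before the start of 6 members are shown because these genes mark both ends of the range: SMAD6, MNS1 and NEO1 had the largest decreases among the well counted members, and CORO2B, LRRC49 and PATL2 the largest increases. SMAD6 is an inhibitor of BMP signalling (chr15:66701986-66702235, plus strand), MNS1 a protein of meiotic nuclei and cilia (chr15:56465138-56465387, minus strand) and NEO1 a netrin receptor (chr15:73051652-73051901, plus strand). CORO2B binds actin (chr15:68518123-68518372, plus strand), LRRC49 belongs to a complex that modifies tubulin (chr15:70853128-70853377, plus strand), and PATL2 is an RNA-binding protein known from oocytes (chr15:44711391-44711640, minus strand). The sequences run 5′ to 3′ on the gene's strand in RefSeq's GRCh38.p14, and capitals mark a GC box (GGGCGG) or a CCAAT box (CCAAT) read on either strand.
SMAD6: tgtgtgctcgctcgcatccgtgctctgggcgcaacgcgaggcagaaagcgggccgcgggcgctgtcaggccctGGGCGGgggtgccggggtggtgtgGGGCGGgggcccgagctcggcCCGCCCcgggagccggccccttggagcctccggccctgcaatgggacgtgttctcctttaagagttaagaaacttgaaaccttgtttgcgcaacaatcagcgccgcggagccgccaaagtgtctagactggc
MNS1: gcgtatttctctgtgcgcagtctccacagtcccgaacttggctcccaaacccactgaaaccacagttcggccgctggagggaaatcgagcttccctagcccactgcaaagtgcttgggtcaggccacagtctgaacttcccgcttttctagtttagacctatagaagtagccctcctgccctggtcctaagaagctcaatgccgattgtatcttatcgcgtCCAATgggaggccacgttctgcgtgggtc
NEO1: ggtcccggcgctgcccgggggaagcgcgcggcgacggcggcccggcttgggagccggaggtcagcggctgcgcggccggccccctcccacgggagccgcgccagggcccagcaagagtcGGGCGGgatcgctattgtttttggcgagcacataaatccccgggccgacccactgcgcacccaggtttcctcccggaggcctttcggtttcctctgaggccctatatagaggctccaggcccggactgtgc
CORO2B: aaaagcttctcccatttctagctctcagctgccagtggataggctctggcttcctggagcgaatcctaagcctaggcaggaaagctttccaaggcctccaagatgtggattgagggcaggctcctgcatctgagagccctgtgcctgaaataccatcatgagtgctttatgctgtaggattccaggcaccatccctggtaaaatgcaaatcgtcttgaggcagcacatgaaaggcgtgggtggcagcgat
LRRC49: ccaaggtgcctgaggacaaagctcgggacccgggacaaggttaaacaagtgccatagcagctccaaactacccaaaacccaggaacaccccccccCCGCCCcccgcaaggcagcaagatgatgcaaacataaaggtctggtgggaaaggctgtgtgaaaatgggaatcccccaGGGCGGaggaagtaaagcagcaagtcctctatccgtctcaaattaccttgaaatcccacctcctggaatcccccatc
PATL2: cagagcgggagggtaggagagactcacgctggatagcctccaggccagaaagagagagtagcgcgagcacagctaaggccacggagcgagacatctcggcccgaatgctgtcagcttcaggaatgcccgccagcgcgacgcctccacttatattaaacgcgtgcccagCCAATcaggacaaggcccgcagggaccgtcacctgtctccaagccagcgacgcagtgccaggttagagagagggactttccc

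SMAD6 had 3 GC boxes, LRRC49 2 and NEO1 1, MNS1 and PATL2 each had 1 CCAAT box, and the CORO2B sequence had neither. The CORO2B sequence belongs to a start 60596 bases before the one in the count table. The starts used for NEO1, LRRC49 and SMAD6 lay 192, 139 and 8 bases inside the gene as counted. Parts of these sequences, and of their GC boxes, may thus lie within the counted gene. Promoters were found for 242 of the 327 members that could be tested. A GC box stood in 62.4% of these 242, against 67.2% of the promoters of 10469 tested genes and 42.3% of all 27305 promoters. Among the members, it stood in 66.2% of the 142 called lower, in 48.0% of the 25 called higher and in 60.0% of the 75 not called. For the CCAAT box the shares were 31.8% of the members, 34.8% of tested genes and 33.0% of all promoters. Of the other motifs searched on both strands, the TATA box (TATAAA) stood in 3.72% of the members, 5.21% of tested genes and 11.1% of all promoters. The E-box (CACGTG) stood in 4.96%, 8.99% and 6.49% of the same sets. The AP-1 site (TGANTCA) stood in 4.96% of the members, 4.15% of tested genes and 6.60% of all promoters. Matches of different motifs overlapped in 2 of the 242 members. A match is not a binding site, and these shares are a description.

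Depth was similar in all libraries, at 15983985 to 17845047 counted reads in parent and 16208431 to 18272314 in ADRr. CD44, EGFR, CAV1, VIM and MSN, genes known to be expressed in the mesenchymal-like line MDA-MB-231, stood at 349 to 1509 CPM (reads scaled to a common library size) in every library. The hormone receptor genes ESR1 and PGR had 0 or 1 read per library, and CDH1, which encodes E-cadherin, had 13.1 to 16.2 CPM in parent and 5.91 to 8.21 CPM in ADRr. The leukocyte genes PTPRC, CD53 and TYROBP had at most 4 reads in any library, and PECAM1, of endothelium, had 4 to 13. Libraries of one group were alike and both groups stood far apart, with 15242 genes tested, of which 29.6% were called lower and 29.2% higher in ADRr. A call meant a Benjamini-Hochberg adjusted p of at most 0.05 in edgeR's quasi-likelihood test and a fold change of at least 1.2.

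The members lay lower in ADRr as a group, while the median over all genes was near 0. The median log2 fold change, ADRr against parent, was -0.46 over the 327 tested members (a median fold of 0.727) and -0.01 over all tested genes. The 3 members not tested were AC090970.2, AC105036.3 and ALPK3. The median standard error of a member's log2 fold change was 0.10, the same as over all genes.

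Each ADRr library showed this level by itself. Against the mean of the parent libraries, the median member stood at -0.01, 0.03 and -0.01 on the log2 CPM scale in the 3 parent libraries and at -0.42, -0.42 and -0.42 in the 3 ADRr libraries. The groups did not overlap, and the ADRr libraries lay closer to each other (SD 0.0021) than the parent libraries did (SD 0.021). As a share of all counted reads, the members made up 1.67, 1.70 and 1.63% in parent (1.67% ± 0.033, SD, n = 3) and 1.27, 1.25 and 1.25% in ADRr (1.26% ± 0.0085, SD, n = 3). Here too every ADRr library lay below every parent library.

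Of the 327 members, 180 (55.0%) were called lower, 29 (8.87%) were called higher and 118 were not called, beside 29.6% and 29.2% of all tested genes. In 194 members every ADRr library lay below every parent library, in 35 every one lay above, and in 98 the groups overlapped. Over all tested genes 34.7% lay wholly below and 34.5% wholly above. A log2 fold change below 0 was found in 253 members (77.4%), against 50.4% of all tested genes. Since the stretch was chosen on this comparison, nothing is read from the distance between these shares.

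The shift was spread over many members of moderate size and was not carried by a few large ones. Members with a log2 fold change between -1 and -0.5 were 100 (30.6%, against 14.3% of all genes) and those between -0.5 and 0 were 101 (30.9%, against 27.0%). Larger decreases were fewer, with 43 members between -2 and -1 (13.1%, against 7.24% of all genes) and 9 below -2 (2.75%, against 1.92%). On the other side, 57 members lay between 0 and 0.5, 10 between 0.5 and 1, and 7 at 1 or more (2.14%, against 9.89% of all genes). The middle of the distribution ran from -0.80 at the lower quartile to -0.04 at the upper quartile, where all genes ran from -0.46 to 0.45.

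Members with many and with few reads shared the shift. The 109 members with the highest CPM had a median log2 fold change of -0.39, with 66 called lower. The next 109 stood at -0.47 with 74 called lower, and the 109 with the lowest CPM at -0.53 with 40 called lower. The median standard error was 0.33 among those with the lowest CPM and 0.064 among those with the highest. The median was -0.47 over the 149 members on the plus strand and -0.45 over the 178 on the minus strand. Protein-coding members had a median of -0.46 with 162 of 269 called lower. The 25 antisense members had a median of -0.72 with 10 called lower and 3 higher, and their reads cannot be told apart from those of the gene on the other strand, because the strand setting of the counting is not given in the sources used here.

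Along the chromosome the low level ran through every 5 Mb window that held more than 2 members. The calls per window stand beside 55.0% lower and 8.87% higher over all tested members. Over all tested genes the shares were 29.6% and 29.2%. The members between 40 and 45 Mb had a median of -0.34, with 23 of 46 called lower and 6 higher. From 45 to 50 Mb the median was -0.54 with 14 of 22 called lower, and from 50 to 55 Mb it was -0.33 with 12 of 23. The next 3 windows stood at -0.55, -0.49 and -0.53, and between them held 12 of the 29 members called higher. The shallowest window ran from 70 to 75 Mb, at -0.22 with 16 of 41 called lower and 5 higher. The deepest followed it, from 75 to 80 Mb, at -0.61 with 27 of 41 called lower and 1 higher. From 80 to 85 Mb the median was -0.47, and from 85 to 90 Mb it was -0.48 with 12 of 18 called lower and 6 not called.

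A running median of 15 neighbouring genes was below 0 at 318 of the 327 members. It was lowest, -0.78, at C15orf65 near 55.4 Mb, and it was at or above 0 in 2 places. The first held 6 positions that reached 0.08, from PAQR5, a progestin receptor gene near 69.3 Mb, to THAP10. The second held 3 positions that also reached 0.08, at MESD, TLNRD1 and STARD5 near 81.0 Mb. Around PAQR5 a run of 19 tested genes from AC026992.2 to ARIH1 had a median of -0.01, with 4 called lower and 3 higher. This gap in the block held TLE3, a transcriptional corepressor (0.08, not called), MYO9A, an unconventional myosin (-0.09, not called), HEXA, a subunit of lysosomal hexosaminidase (-0.09, not called), LRRC49 (1.26, higher) and PARP6 (0.43, higher). UACA, an apoptosome-associated protein gene in the same run, was called lower at -0.93. Splitting chromosome 15 into 5 runs instead of 3 set this gap apart.

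**Figure D1:**
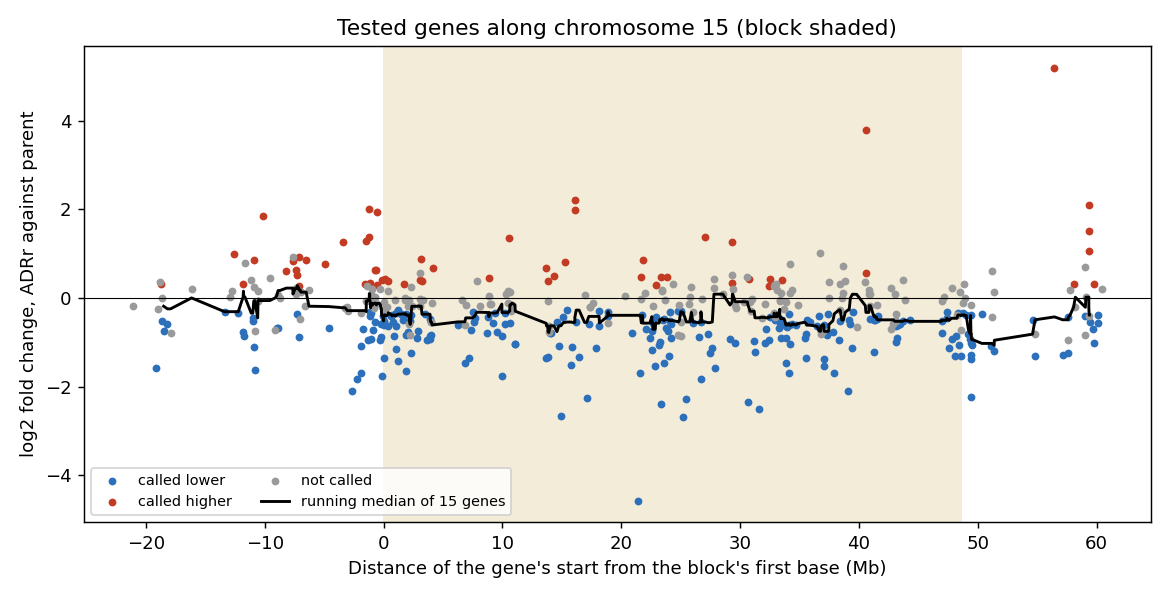
Log2 fold change, ADRr against parent (y axis), of each tested gene of chromosome 15 by the distance of its start from the first base of the block (x axis, Mb), coloured by call, with the block shaded and the running median of 15 genes as a black line. The line lies below 0 at 318 of 327 members, comes up to 0.08 near PAQR5 and again near TLNRD1, and stays below 0 at 37 of 40 positions after the block.

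A step in the data lay near the start of the block, 0.34 Mb earlier than the stated first base. The stretch was chosen on this same comparison, so the nearness is a description and not independent support. When the tested genes of chromosome 15 were cut into 3 runs, each fitted by its own median, the first break fell between INO80, a chromatin remodeller gene that starts at 40978880, and FAM92A1P1, a pseudogene that starts at 41163162. A break between CHP1 at 41230839 and OIP5-AS1 at 41283990 did exactly as well, and the earlier one was kept. The 92 genes before the break had a median of -0.06, with 29 called lower and 23 higher. The 364 genes after it, up to TTC23 at 99136323, had a median of -0.47, with 205 called lower and 31 higher. A break near this place returned in all 22 settings tried, with the gene after it starting between 41108878 and 41621224, and in 5 of 6 scans of a single library. All of these drew on the same libraries.

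The end of the block was less clear. The second break fell 9.05 Mb beyond the stated last base, between TTC23 and LRRC28 at 99251362, and its place depended on single libraries. Without ADRr library 2 or without parent library 3 it fell before the block instead, at 25333728. Without ADRr library 1 it fell inside the block at 75335891, and without parent library 2 at 72686179. With 4 runs, and again with 6, a break fell 0.85 Mb past the stated end, between HDDC3 at 90929964 and UNC45A at 90930180. It was a step further down, as the next 18 genes had a median of -1.05 and the 345 genes before it, back to FAM92A1P1, a median of -0.45. The 47 tested genes after the block had a median of -0.40, with 25 called lower and 6 higher, beside the members' -0.46. On unfiltered FPKM both moved, to -0.030 after the block and -0.26 in it. That fit kept every gene with any FPKM, but the block was still read over its 327 members. These values may thus rest on genes filtered unlike each other. With a mean FPKM of at least 0.5 and a pseudocount of 1, the median was -0.24 after the block and -0.30 in it. With a pseudocount of 0.1 it was -0.36 and -0.43. The 100 tested genes before the block had a median of -0.09, with 35 called lower, 24 higher and 55 below 0, and over protein-coding genes that median was 0.013. In the 3 ADRr libraries the genes before the block stood at -0.13, -0.06 and -0.05 on the log2 CPM scale, and the genes after it at -0.40, -0.42 and -0.38. The 3 runs left 97.1% of the summed distance of a single run, so position along the chromosome accounted for a small part of the spread between genes.

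Gene by gene, both ends were mixed. Just before the start, NUSAP1, a spindle protein gene, was called lower (-1.77), as were OIP5, of the centromere (-0.88), ITPKA, an inositol trisphosphate kinase (-0.61), and RTF1, of the elongating polymerase complex (-0.40), and NDUFAF1, an assembly factor of respiratory complex I, was called higher (0.40). Just inside, LTK, a receptor tyrosine kinase gene, had 89.5, 70.3 and 96.4 normalized counts in parent and 33.3, 39.8 and 27.1 in ADRr (log2 fold change -1.36, SE 0.23). TYRO3, another receptor kinase gene, was called lower (-0.52), MGA, a MAX-binding transcription factor gene, was called higher (0.42), and RPAP1 (-0.25) and the pseudogene ELOCP2 (-0.10) were not called.

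At the far end, ARPIN, an inhibitor of the Arp2/3 actin nucleator, was called lower (-1.07), as was AP3S2, an adaptor subunit (-0.35), whereas MESP1 (-0.39), ZNF710 (0.14) and ZNF710-AS1 (-0.72) were not called. ZNF710 and ZNF710-AS1 overlap on opposite strands. Beyond the end, IDH2, the mitochondrial isocitrate dehydrogenase, was called lower (-1.32), as was NGRN (-0.34), and CIB1 (-0.12), ZNF774 (0.31) and IQGAP1 (-0.01) were not called. At the count limit, AC108451.2 was just inside with 10, 11 and 21 reads in parent and 4, 0 and 6 in ADRr, and AC090970.2 with 12, 12 and 1 and with 10, 9 and 1. ISLR2 (3, 9 and 6 reads, then 6, 17 and 14) and AC090181.3 (10, 7 and 6, then 9, 9 and 12) were just outside. Of the 330 members, 288 had at least 10 reads in all 6 libraries, 8 had them in no ADRr library and 2 in no parent library, so 42 met the rule through some libraries only.

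Among the named members with the largest decreases, MNS1, PIF1, TUBGCP4 and DUT are listed below under genome maintenance and chromosome segregation. SMAD6, NEO1, TPM1 and IMP3 are listed under other roles, and PCLAF and CHRNA5 are in no list. SMAD6, which restrains BMP signalling, had 479, 484 and 590 normalized counts in parent (517 ± 63.1, SD, n = 3) and 88.5, 63.8 and 88.7 in ADRr (80.4 ± 14.3, SD, n = 3), a log2 fold change of -2.68 (SE 0.13). MNS1 had 139, 154 and 110 in parent and 21.9, 15.7 and 25.2 in ADRr (-2.66, SE 0.23). NEO1 had 133, 161 and 137 in parent and 20.0, 32.4 and 23.3 in ADRr (-2.51, SE 0.21). The lowest parent library lay 5.39-fold above the highest ADRr library for SMAD6, 4.36-fold for MNS1 and 4.09-fold for NEO1. MNS1 overlaps TEX9 on the other strand, so its reads are uncertain.

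PIF1, a DNA helicase that acts at telomeres and replication forks, had 531, 578 and 688 normalized counts in parent and 109, 97.3 and 136 in ADRr (-2.38, SE 0.12). TPM1, the actin-binding tropomyosin, had 4091, 4220 and 4249 in parent and 1249, 1273 and 1386 in ADRr (-1.68, SE 0.056). DUT, which removes dUTP before it can enter DNA, had 2171, 2423 and 2425 in parent and 903, 854 and 791 in ADRr (-1.46, SE 0.066). These genes too were named on the condition that their groups were apart. PCLAF, a PCNA-binding protein gene, had 863, 987 and 747 in parent and 309, 277 and 310 in ADRr (-1.53, SE 0.098).

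TUBGCP4, a part of the gamma-tubulin ring complex that seeds microtubules, stood at 708 to 912 normalized counts in parent and 230 to 274 in ADRr (-1.65). IMP3, a ribosome biogenesis protein gene, stood at 392 to 403 and at 116 to 133 (-1.70). CHRNA5, a nicotinic receptor subunit gene, stood at 118 to 131 and at 30.5 to 54.4 (-1.55). These 3 genes and DUT overlap a counted gene on the opposite strand. AC103740.2, named after its values were seen, had the largest fitted decrease of the members, with 49, 38 and 57 reads in parent and 3, 0 and 3 in ADRr, at least 16.3-fold lower against a floor of 3 reads per library.

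By role, the members were grouped into 8 lists of genes known to lie in the stretch, and every list had a median below 0. The members had been chosen for low levels and had a median of -0.46, so list medians below 0 follow from that choice. All genes had a median of -0.01, with 29.6% called lower and 29.2% higher. Over all tested members 55.0% were called lower and 8.87% higher, and the calls in each list are a description beside these shares. Genome maintenance and chromosome segregation stood lowest, with a median of -1.31 over 15 tested members, of which 12 were called lower, 2 higher and 1 not called. Besides PIF1, TUBGCP4, MNS1 and DUT, it held NEIL1, a base excision glycosylase (-1.46), CDAN1, a histone chaperone partner (-1.41), CEP152, of the centriole (-1.35), TICRR, which helps replication origins fire (-1.31), TP53BP1, a double-strand break protein (-0.83), and ZWILCH, of the kinetochore (-0.33). AEN, a nuclease induced by p53, was not called (0.01). PARP6, an ADP-ribosyltransferase gene, and CCNDBP1, a cyclin D partner gene, were called higher, at 0.43 and 0.32.

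Kinases and signalling had a median of -0.54, with 16 of 24 called lower and the other 8 not called. ARPP19, an inhibitor of the phosphatase PP2A in mitosis, was called lower (-1.04), as were DAPK2 (-0.91), PIAS1, a SUMO ligase (-0.89), CSK, the kinase that restrains SRC (-0.68), and PML, of the nuclear bodies (-0.44). MAPK6 (0.16) and MAP2K1 (-0.17), both of MAP kinase cascades, were not called. MAPK6 overlaps 3 counted genes on the other strand.

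Mitochondria and metabolism also had a median of -0.54, with 21 of 29 called lower, 3 higher and 5 not called. HACD3, a fatty acid elongation enzyme gene (-1.30), ALDH1A2, which makes retinoic acid (-1.34), ADPGK, an ADP-dependent glucokinase (-1.23), ABHD2, a lipase (-1.13), POLG, the mitochondrial DNA polymerase (-0.92), and ETFA, of the electron transfer flavoprotein (-0.62), were called lower. ALDH1A2 was weakly counted, with a mean of 0.54 CPM over the libraries and an SE of 0.48. MRPL46 and MRPS11, both of the mitochondrial ribosome, were called lower at -0.79 and -0.53. CA12, SQOR and PPCDC were called higher.

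Cytoskeleton, adhesion and matrix had a median of -0.46, with 14 of 23 called lower, 1 higher and 8 not called. ANXA2, a calcium-dependent membrane binding protein gene, had 29474, 30299 and 29654 normalized counts in parent and 22254, 22535 and 22149 in ADRr (-0.42, SE 0.041). Its groups were well apart, although the change was smaller than the members' median. LOXL1, which crosslinks elastin (-0.94), CD276, an immune checkpoint ligand (-0.71), and CEMIP, which degrades hyaluronan (-0.58), were called lower. TMOD3, an actin capping protein gene (0.08), and CSPG4, a cell surface proteoglycan gene (0.10), were not called.

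Vesicle traffic had a median of -0.49, with 16 of 26 called lower, 2 higher and 8 not called. RAB27A, which guides exosome secretion (-1.36), RAB11A, of recycling endosomes (-0.90), the tetraspanin TSPAN3 (-0.81) and SNX1, of the retromer (-0.74), were called lower, and EHD4 (0.39) and RAB8B (0.46), of recycling and exocytosis, were called higher. Transcription and RNA had a median of -0.37, with 21 of 31 called lower, 4 higher and 6 not called. MORF4L1, a chromatin reader of acetyltransferase complexes, was called lower (-0.84) and EIF3J, a translation initiation factor gene, higher (0.41), whereas SIN3A (-0.10) and SLTM (-0.21) were not called.

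Protein folding and secretion had a median of -0.35, with 9 of 14 called lower, 2 higher and 3 not called. PDIA3, a disulfide isomerase of the endoplasmic reticulum (-0.52), PPIB, a cyclophilin of the same compartment (-0.57), and SERF2 (-0.39) were called lower. Ubiquitin and proteasome stood highest of the lists, at -0.17, with 9 of 20 called lower, 2 higher and 9 not called. PSMA4, a proteasome core subunit gene, was called lower (-0.60), ARIH1, a ubiquitin ligase gene, was not called (-0.01), and NEDD4 and TRIM69, both ligase genes, were called higher (0.48 and 0.37). The 146 tested members in no list had a median of -0.42, with 63 called lower and 13 higher.

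**Figure D2:**
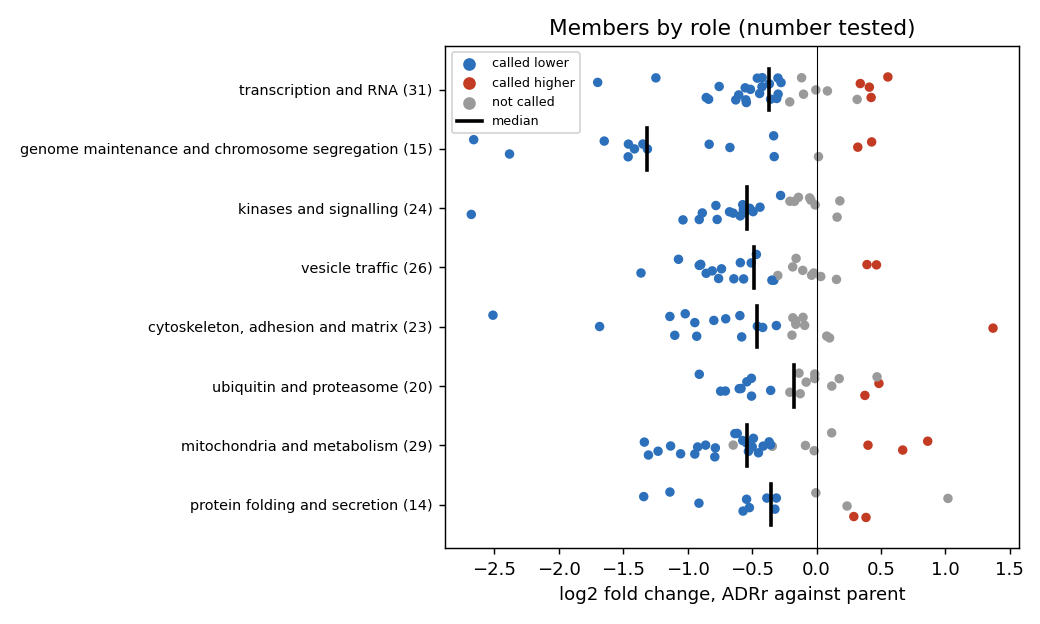
Log2 fold change, ADRr against parent (x axis), of the tested members in 8 lists by role (y axis, number tested in brackets), with 1 point per gene coloured by call and a black bar at the median. The bars run from -1.31 for genome maintenance to -0.17 for ubiquitin and proteasome.

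The 29 members called higher lay among genes that were mostly lower, which follows from the choice of the stretch. All 29 had every ADRr library above every parent library, as had 35 of the 327 members and 34.5% of all tested genes. A call and groups apart draw on the same libraries, so this is a description. Of the 29, 24 were protein-coding and 6 had a log2 fold change of at least 1. The median of the 10 nearest tested genes was below 0 around 28 of the 29, between -0.77 and -0.05, and was 0.14 around LARP6. In 15 cases both next genes were below 0. Over the whole block the running median of 15 genes was below 0 at 318 of 327 members, so low neighbours were not particular to these genes. The 29 were not gathered in one place, since 6 started before 45 Mb and the others were scattered up to EFL1 at 82.1 Mb.

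CORO2B had 46.3, 51.9 and 50.6 normalized counts in parent (49.6 ± 2.94, SD, n = 3) and 137, 141 and 107 in ADRr (129 ± 18.5, SD, n = 3), a log2 fold change of 1.37 (SE 0.18), while its 10 neighbours had a median of -0.69. LRRC49 had 75.1, 101 and 87.7 in parent and 208, 225 and 199 in ADRr (1.26, SE 0.14). PATL2 had 70.0, 82.2 and 66.2 in parent and 142, 117 and 143 in ADRr (0.88, SE 0.17). All 3 were named on the condition that their groups do not overlap, and LRRC49 shares bases with LARP6 and THAP10 on the other strand.

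CA12, a cell surface carbonic anhydrase that helps set pH, had 203, 169 and 140 normalized counts in parent and 286, 356 and 289 in ADRr (0.86, SE 0.13). RSL24D1, needed to build the large ribosomal subunit, had 1323, 1412 and 1265 in parent and 2257, 2122 and 1966 in ADRr (0.67, SE 0.064). It stood between FAM214A (-1.03) and RAB27A (-1.36), both called lower. EFL1, the GTPase that frees the same subunit for translation, had 538, 723 and 561 in parent and 909, 863 and 897 in ADRr (0.55, SE 0.090).

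NEDD4, a ubiquitin ligase of membrane proteins, had 2939, 3098 and 2488 normalized counts in parent and 4061, 3673 and 4180 in ADRr (0.48, SE 0.068), between PRTG (-0.80) and RFX7 (-0.54). SQOR, which oxidises sulfide in mitochondria, had 184, 187 and 145 in parent and 250, 271 and 298 in ADRr (0.67, SE 0.12). IGDCC4, a cell adhesion gene, had 951, 809 and 913 in parent and 1267, 1309 and 1154 in ADRr (0.48, SE 0.073). RAB8B stood at 1266 to 1497 and at 1904 to 1957 (0.46, SE 0.063). Groups that do not overlap were a condition for naming these 4 genes.

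PLEKHO2 (0.46) was next to PIF1 (-2.38), and TRIP4 (0.29) was next to PCLAF (-1.53), so neighbouring genes stood on opposite sides. Of the 29, 10 overlapped another counted gene, 7 of them on the opposite strand. GCOM1 and MYZAP, which share a start region and so may share reads, were named after their values were seen, with 11 to 21 and 10 to 14 reads in parent and 68 to 87 and 45 to 57 in ADRr. LINC01583, also named afterwards, was the member with the largest increase, with 0, 3 and 5 reads in parent and 24, 39 and 59 in ADRr.

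**Figure D3:**
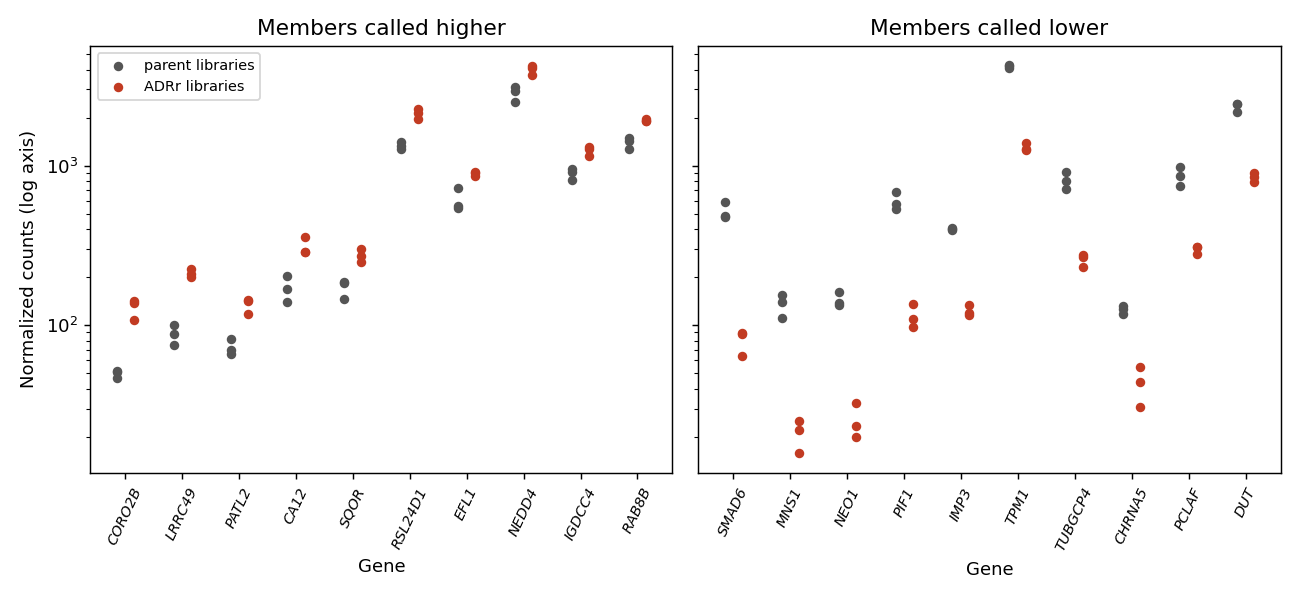
Normalized counts (y axis, log scale) in each parent library (grey) and each ADRr library (red) for the 10 members called higher and the 10 called lower (x axis) that had the largest fold changes whose mean reached 100 in the group where they were higher. The genes were chosen for groups that do not overlap. Their fold changes run from SMAD6, with means of 517 against 80.4, to CORO2B, with means of 49.6 against 129.

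Chromosome 15 as a whole had the lowest median of 23 chromosomes, at -0.40 over 499 tested genes. Chromosome 4 (-0.33), chromosome 6 (-0.22) and chromosome 3 (-0.21) followed, and chromosomes 21 (0.70) and 18 (0.53) were highest.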

How the data were processed

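Gene counts for 6 libraries were deposited as 1 table and FPKM values as another. Per the submitters' processing notes, the authors used fastp, HISAT2 2.0.5, featureCounts 1.5.0-p3 and DESeq2 1.20.0 with the build GRCh38, and the settings of each step are not given there. The deposited counts were raw, and the deposited FPKM were the authors' length and depth scaled values. The strand setting is not given in the sources used here.

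Counts were fitted over the whole table with edgeR 4.0.16 (R 4.3.3): TMM scaling, filterByExpr, a quasi-likelihood test and Benjamini-Hochberg adjustment over 15242 genes. Normalized counts are counts over TMM-scaled library size, brought to the mean library size. Levels were not compared between genes. The 23 names set aside were left out of all chromosome 15 counts except the chromosome medians. Runs held at least 10 genes and minimised the summed absolute distance to their medians. Scripts were tested on simulated data. There the search for runs placed the start of a known run 1 gene off and its end 14 genes off.

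The stretch, the members and the role lists were chosen with earlier results of these data known. Named genes were the 5 tested genes on each side of each end, the 10 members with the largest fold change in each direction (called, groups apart, and 100 or more normalized counts on average where higher), the 3 with the highest CPM in each list, and the 2 genes nearest the count limit on each side. Other genes were named as examples of a list or of neighbours. Alternatives were other scalings, DESeq2 1.42.0, limma 3.58.1 on log2(FPKM + 1) or log2(FPKM + 0.1), other filters and run lengths, a replicate block and each library left out. Same-numbered libraries did not deviate together (r = 0.0074, -0.021 and -0.046), so the numbers do not pair the samples.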

Additional observations from a re-analysis of the deposited data

How the results depend on the processing

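The block's median log2 fold change kept its sign under every alternative run. It was -0.42 with at least 10 counts in every library, -0.43 with library size alone, -0.26, -0.43 and -0.30 with limma on FPKM without a filter, with a pseudocount of 0.1 and with a pseudocount of 1, -0.43 over members with at least 10 counts in every library (chosen after seeing the data), and -0.45 to -0.43 with each library left out. After the block the median was -0.38 with library size alone, -0.030, -0.36 and -0.24 with the same FPKM settings, and -0.44 to -0.38 with each library left out. The unfiltered FPKM fit kept every gene with any FPKM, whereas the block was read over its 327 members. Before the block it was -2.2e-04 with unfiltered FPKM, 0.013 over protein-coding genes, a change of sign, and -0.12 to -0.04 with each library left out. In some settings the middle run was a stretch before the block and not the block. With no filter on counts the breaks fell at 22664359 and 41108878. Without ADRr library 2 or parent library 3 they fell at 25333728 and 41163162. The step near the start of the block was thus kept in these settings. The first gene of the middle run started at 22664359 with no filter on counts and at 25333728 to 41163162 with each library left out. Its last gene started at 40978880 with at least 10 counts in every library, at 41230839 over protein-coding genes, at 41557675 with unfiltered FPKM, at 41016807 with no filter on counts, at 40978880 with runs of at least 25 genes, and at 40978880 to 99136323 with each library left out, so the far end was not fixed by these data. A log2 threshold of 1.2 left 972 genes lower and 1114 higher, and 36 and 6 members.

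With a replicate block the median was -0.46, with 179 members called lower and 29 higher, and it changed no count of calls by over 1.5 times. Leaving out 1 library ended the calls of NDUFAF1 (0.28 without parent 1), NGRN (-0.24 without parent 3) and SERF2 (-0.26 without parent 3). RPAP1 and MESP1, not called in the main fit, kept that status in 13 of 17 alternatives each, and SLTM in 16 of 17. AP3S2, called lower in the main fit, kept its call in 15 of 17. Detection among weakly counted members was not measured, and the cause of the moved values was not tested.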
